A study of Mus musculus with 6 samples.

Results

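Glypicans and syndecans are the main heparan sulfate proteoglycans of the cell surface, and the mouse genome encodes 6 glypican genes (Gpc1 to Gpc6) and 4 syndecan genes (Sdc1 to Sdc4). These 10 genes were chosen by gene symbol, with their Sox4-against-EV differences in these same libraries already known, so those differences are given below as a description and carry no test. They were 10 of 53599 symbols in the count table, 24036 of which were counted in 1 library or more. Of the 10 genes, 8 were among the 12691 that passed the filter on low counts, and Gpc5 and Gpc6 were not.

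Hepatocyte RNA was sequenced 4 days after mice received an adeno-associated virus of serotype AAV8. The Sox4 group (3 libraries) received AAV8-TBG-HA-Sox4-P2A-Cre, which carries HA-tagged Sox4 joined to Cre by a self-cleaving peptide, and the empty vector group (EV, 3 libraries, genotype labelled WT) received AAV8-TBG-Cre. According to the methods, the mice were Rosa-LSL-Cas9-EGFP homozygotes on a C57BL/6J background, so that Cre switched on Cas9 and EGFP in both groups. Only the Sox4 group received Sox4, but the vectors differed in other parts too. The methods describe an empty vector with an sgRNA backbone cassette and hGH polyA, whereas the Sox4 vector was built in another TBG plasmid. Effects of Sox4 and of these parts cannot be told apart here. The labels give no age. The TBG promoter is active in hepatocytes, which were released by liberase digestion and enriched on Percoll without sorting, so uninfected hepatocytes and other liver cells can be present. Total counts ranged from 15090629 to 16964860 per library. Sox4 itself had 2, 0 and 3 counts in the EV libraries and 21697, 15097 and 11816 counts in the Sox4 libraries, as labelled. Summed levels of 8 hepatocyte markers lay between 104985 and 129510 CPM (counts divided by scaled library size, on a scale shared by all libraries) in the EV libraries, against 73192 to 82749 CPM for Sox4. Against this, 8 cholangiocyte markers summed to between 32.6 and 47.6 CPM in EV, with 87.7 to 95.95 CPM in Sox4, and 9 stellate cell and fibroblast markers to 8.39 to 45.8 and 81.3 to 142 CPM. Reln alone made up most of the stellate cell and fibroblast sum in every library. It was at 7.08, 22.6 and 37.5 CPM in EV and 126, 117 and 50.8 CPM in Sox4, so that sum mainly follows Reln. The cholangiocyte keratin genes Krt7 and Krt19 were at 0 in every EV library. In Sox4, Krt7 had 2, 1 and 7 counts and Krt19 had 9, 2 and 7 counts, and neither gene passed the filter. In such bulk samples, fewer cells of a type and less RNA per cell cannot be told apart.

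Both families carry heparan sulfate, a long sulfated sugar chain that binds growth factors, morphogens, lipoproteins and viruses at the cell surface. Glypicans hold on to the membrane by a glycosylphosphatidylinositol (GPI) anchor and tune Wnt, Hedgehog and fibroblast growth factor signals, whereas syndecans span the membrane and link outside ligands to the cytoskeleton through a short tail. In the liver, Sdc1 takes part in the uptake of triglyceride-rich lipoprotein remnants by hepatocytes, and Gpc3 is known as an oncofetal protein that is present in fetal liver and in many hepatocellular carcinomas and is silent in normal adult hepatocytes.

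Gpc2 and Gpc3 were the members with at most 1 count in any EV library and at least 50 counts in every Sox4 library. The stretches around their annotated starts are printed together with that of Gpc4, the neighbour of Gpc3 on the X chromosome that went the other way. Each runs 5′ to 3′ on the gene's own strand, from 250 bases before to 50 bases after the start, in the RefSeq annotation of GRCm38.p6, where all 3 lie on the minus strand. The Gpc2 window is chr5:138279888-138280187, the Gpc3 window chrX:52613925-52614224 and the Gpc4 window chrX:52164874-52165173, and capitals mark a match to a SOX core.
Gpc2: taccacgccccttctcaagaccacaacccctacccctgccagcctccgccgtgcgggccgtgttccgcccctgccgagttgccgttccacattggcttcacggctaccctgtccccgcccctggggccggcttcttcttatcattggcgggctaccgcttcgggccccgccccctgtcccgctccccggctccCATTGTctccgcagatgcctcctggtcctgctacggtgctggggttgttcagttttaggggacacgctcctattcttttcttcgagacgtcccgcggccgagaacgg
Gpc3: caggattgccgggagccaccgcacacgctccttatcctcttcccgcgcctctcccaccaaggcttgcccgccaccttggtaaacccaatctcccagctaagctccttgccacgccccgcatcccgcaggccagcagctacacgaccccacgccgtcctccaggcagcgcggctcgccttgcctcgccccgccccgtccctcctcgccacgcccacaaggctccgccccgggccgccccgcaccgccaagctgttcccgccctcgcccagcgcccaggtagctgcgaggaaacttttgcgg
Gpc4: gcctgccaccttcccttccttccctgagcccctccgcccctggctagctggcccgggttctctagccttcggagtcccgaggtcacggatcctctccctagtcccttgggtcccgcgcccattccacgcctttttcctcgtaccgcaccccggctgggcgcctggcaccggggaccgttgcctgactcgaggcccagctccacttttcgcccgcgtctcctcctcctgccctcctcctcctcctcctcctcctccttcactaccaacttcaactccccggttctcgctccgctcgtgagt
The motifs searched on both strands were the SOX cores ACAAAG and ACAATG and the TATA box core TATAAA, where the SOX cores differ in the fifth letter alone and cannot match the same bases. The Gpc2 window held 1 match, ACAATG read on the opposite strand as CATTGT from base 194 to base 199 of the window, and the Gpc3 and Gpc4 windows held none. Of all 32851 RefSeq windows of this length, 12.6% held ACAATG, 28.6% held either SOX core and 13.6% held TATAAA. RefSeq windows were also at hand for Gpc5, Sdc1, Sdc3 and Sdc4, which made 7 of 10 members, while Gpc1, Gpc6 and Sdc2 had no entry. The only other match among the 7 was TATAAA in Gpc5, so that 1 of 7 windows held a SOX core. All 7 windows were richer in GC than the median window, at 54.7% (Gpc5) to 77.7% (Sdc3) against 52.7%, and held 14 (Sdc1) to 44 (Sdc3) CpG dinucleotides against a median of 7. A match of letters describes the window and does not show that a factor binds there.

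Gpc2, a glypican best known from the developing nervous system, had 0 counts in each of the 3 EV libraries and 219, 309 and 266 counts in Sox4 1 to 3. Its level in Sox4 was 10.96, 15.8 and 13.5 CPM, a mean of 13.4 ± 2.40 CPM (SD, n = 3). The 3 Sox4 libraries were alike, and none came near the floor of 3 counts, which is 0.150 to 0.231 CPM in these libraries. Against that floor, set per library, Gpc2 was at least 59.5-fold higher in Sox4. Gpc2 lies on chromosome 5 (138273655 to 138280005 of GRCm38, minus strand, GENCODE M21) and spans 6.4 kb with 6 exons in its longest transcript. An annotated coding gene on the same strand, Gm43720, covers 55.6% of the exon bases of Gpc2 and had 0 counts in all 6 libraries, so the value of Gpc2 depends on how reads shared by both were counted. The gene on its other side, Stag3, starts 235 bases away and had 0, 0 and 0 counts in EV and 8, 1 and 8 counts in Sox4.

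Gpc3, the oncofetal glypican, had 0, 0 and 1 counts in EV and 50, 54 and 107 counts in Sox4. The levels were 0, 0 and 0.0725 CPM in EV and 2.50, 2.75 and 5.42 CPM in Sox4, so that Sox4 3 was about as high as the other Sox4 libraries together. With 1 EV count in all, the ratio of Sox4 to EV was 142, with a 95% counting interval from 25.2 to 5640 (exact binomial on pooled counts, counting error only). The groups did not overlap for Gpc2 or for Gpc3. The fitted log2 fold changes of both depended on the constant added to a count and are not used as sizes here.

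Gpc1, a glypican that is expressed in many tissues, was present in both groups. It had 113, 84 and 92 counts in EV and 326, 319 and 272 counts in Sox4, or 8.70, 6.37 and 6.67 CPM against 16.3, 16.3 and 13.8 CPM. Every Sox4 library was above every EV library. The mean was 7.25 ± 1.26 CPM in EV and 15.5 ± 1.46 CPM in Sox4 (SD, n = 3), a log2 fold change of 1.09 (SE 0.16). Gpc1 lies on chromosome 1 (92831645 to 92860779, plus strand, GRCm38), where the opposite-strand gene Ankmy1 covers 18.9% of its exon bases. Ankmy1 had 1, 3 and 3 counts in EV and none in Sox4.

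Gpc4, the most abundant glypican in EV, went the other way. Its counts were 892, 1078 and 1162 in EV and 1147, 1082 and 993 in Sox4, nearly level before scaling. Scaled to effective library size, these were 68.6, 81.7 and 84.3 CPM in EV and 57.4, 55.2 and 50.3 CPM in Sox4, with no overlap. The mean was 78.2 ± 8.39 CPM in EV and 54.3 ± 3.67 CPM in Sox4, a log2 fold change of -0.53 (SE 0.11), which became -0.057 with library size alone as the scaling. Gpc3 and Gpc4 lie next to each other on the X chromosome, on the same strand and 107174 bases apart.

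Gpc5 and Gpc6, which lie side by side on chromosome 14 and are both spread over more than a megabase (1433 and 1051.2 kb), were at or near 0. Gpc5 had 0 counts in all 6 libraries, which allows a level of up to 0.150 to 0.231 CPM in each. Gpc6 had 1, 1 and 1 counts in EV and 1, 5 and 7 counts in Sox4, a ratio of 2.92 with a 95% counting interval from 0.802 to 15.97. No difference in Gpc6 could be detected at this depth.

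**Figure D1:**
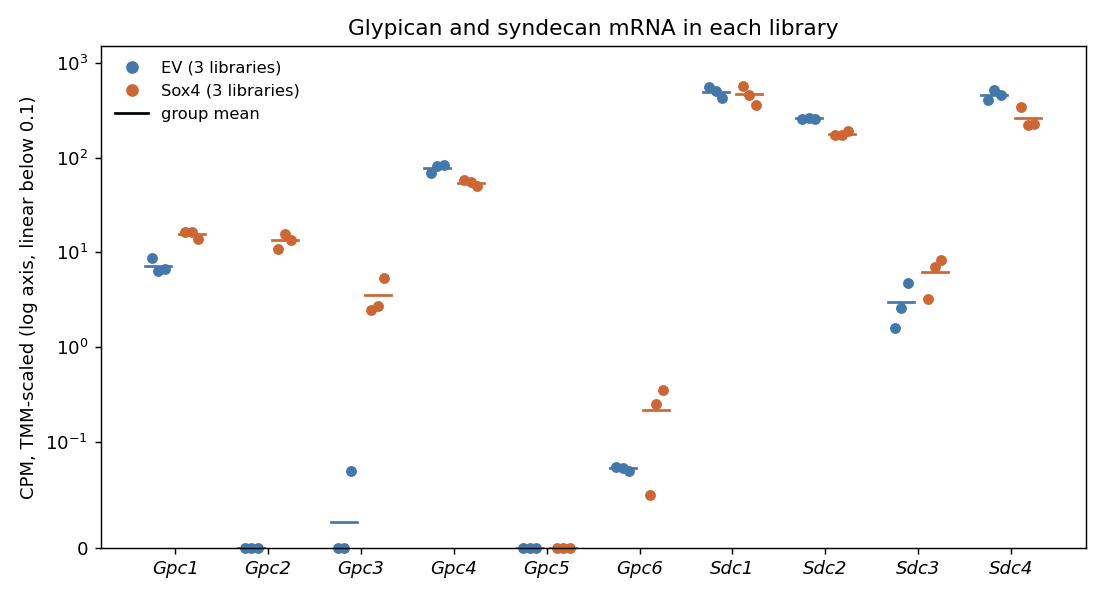
Level of each glypican and syndecan gene in each library, in TMM-scaled CPM on a log axis, with 1 point per library and a line at the group mean, the axis being linear below 0.1 CPM. Gpc2 was at 0 in the 3 EV libraries and at 10.96 to 15.8 CPM in Sox4, while Gpc4, Sdc2 and Sdc4 were lower in every Sox4 library than in any EV library on this scale.

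Sdc4, a syndecan found at focal adhesions, was lower in Sox4. Its counts were 5191, 6711 and 6331 in EV and 6826, 4339 and 4455 in Sox4, or 399, 509 and 459 CPM against 342, 221 and 225 CPM. The groups did not overlap after scaling, and Sox4 1 was the Sox4 library nearest to EV. The mean was 456 ± 54.8 CPM in EV and 263 ± 68.3 CPM in Sox4 (SD, n = 3), a log2 fold change of -0.79 (SE 0.23) that was -0.32 with library size alone. Without Sox4 1 the value was -1.03.

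Sdc2, a syndecan of liver and mesenchymal cells, was the least variable member. It had 3338, 3478 and 3535 counts in EV and 3422, 3410 and 3763 counts in Sox4, which scaled to 257, 264 and 256 CPM and to 171, 174 and 190.4 CPM. All EV libraries were above all Sox4 libraries. The mean was 259 ± 4.12 CPM in EV and 179 ± 10.4 CPM in Sox4, a log2 fold change of -0.54 (SE 0.05). With library size alone that difference was -0.068, since the raw counts of the groups were almost the same.

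Sdc1, the lipoprotein remnant receptor, had overlapping groups. Its counts were 7263, 6664 and 5822 in EV and 11471, 9026 and 7074 in Sox4, or 559, 505 and 422 CPM against 574, 460 and 358 CPM. The highest and the lowest of the 6 levels were both from Sox4 libraries. The mean was 495 ± 68.9 CPM in EV and 464 ± 108 CPM in Sox4, a log2 fold change of -0.09 (SE 0.23) that turned to 0.37 with library size alone and to 0.066 without Sox4 3. The difference was smaller than the spread between replicates.

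Sdc3, a syndecan best known from neurons, had the fewest counts of its family. It had 21, 34 and 66 counts in EV and 64, 138 and 166 counts in Sox4, or 1.62, 2.58 and 4.79 CPM against 3.20, 7.04 and 8.40 CPM. Sox4 1 lay below EV 3, so the groups overlapped. The mean was 2.99 ± 1.63 CPM in EV and 6.21 ± 2.70 CPM in Sox4, a log2 fold change of 1.05 (SE 0.60). The value was 1.55 without EV 3 and 1.36 without Sox4 1. It was 1.07 with the replicate number as a block, 1.05 with DESeq2, 1.09 without a filter and 1.52 with library size alone. Sdc3 was not called in the main fit and was called in these alternatives, and nothing is read from the calls.

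Of the 9 stellate cell and fibroblast markers, 4 ordered the libraries of each group as Sdc3 did, Dcn and Col3a1 among them, and 5 did not. Dcn, which encodes the matrix proteoglycan decorin, had 11, 23 and 66 counts in EV and 71, 243 and 335 counts in Sox4. Col3a1, a fibrillar collagen gene, had 1, 19 and 20 counts in EV and 35, 93 and 98 counts in Sox4. Lrat, whose enzyme forms retinyl esters in stellate cells, had 4, 3 and 8 against 10, 34 and 50. Laptm5, a gene of blood cells and the nearest downstream neighbour of Sdc3 in the annotation, had 7, 18 and 14 counts in EV and 42, 113 and 95 counts in Sox4. Sox4 1 was the lowest Sox4 library for Sdc3, for Laptm5 and for 7 of the 9 stellate cell and fibroblast markers. Reln, the most abundant of those markers, ordered the EV libraries as Sdc3 did, with 92, 298 and 517 counts. It ordered the Sox4 libraries the other way, with 2522, 2291 and 1003 counts. The summed list was at 134, 142 and 81.3 CPM in Sox4 1 to 3 and so was lowest in Sox4 3. All 8 endothelial markers and all 8 markers of Kupffer cells and macrophages were lowest in Sox4 1 among the Sox4 libraries. The Kupffer cell and macrophage sums were 16.5 to 44.0 CPM in Sox4 against 9.54 to 19.0 CPM in EV. The endothelial sums were 12.7 to 31.1 CPM in Sox4 against 16.5 to 24.1 CPM in EV. For both lists the groups overlapped. The part of these other cell types in the Sdc3 result was not tested.

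**Figure D2:**
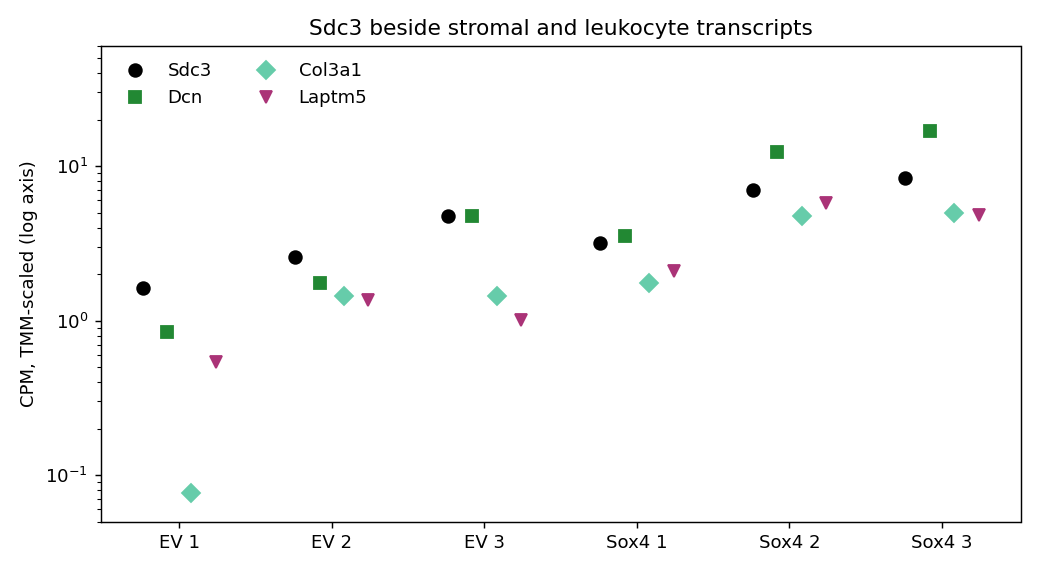
Level of Sdc3, of the stellate cell and fibroblast markers Dcn and Col3a1 and of the blood cell gene Laptm5 in each of the 6 libraries, in TMM-scaled CPM on a log axis. Sox4 1 was the lowest Sox4 library for all 4 genes, and its Sdc3 level of 3.20 CPM was below the 4.79 CPM of EV 3. Reln, which ordered the Sox4 libraries the other way, is not drawn.

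Of the 8 members tested, 6 passed an adjusted p of 0.05 in the edgeR fit across all genes, where 55.1% of all tested genes did. The 3 higher ones were Gpc1, Gpc2 and Gpc3 (29.0% of all tested genes were called higher), and the 3 lower ones were Gpc4, Sdc2 and Sdc4 (26.0% were called lower). In the same 6 members the groups did not overlap, as in 63.0% of all tested genes. Nothing is read from these counts, since the members were chosen with this contrast known. The median log2 fold change of the 8 was 0.48 beside 0.04 over all tested genes, and Gpc2 and Gpc3 entered it with fitted values. With library size alone as the scaling, the median of all genes moved to 0.51, the 3 lower members were no longer called and Sdc3 was called higher, so that 4 members were higher and 0 lower. Total counts in Sox4 were 1.07 times and scaled library sizes 1.48 times those in EV, and the direction of Gpc4, Sdc1, Sdc2 and Sdc4 is relative to that scale.

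**Figure D3:**
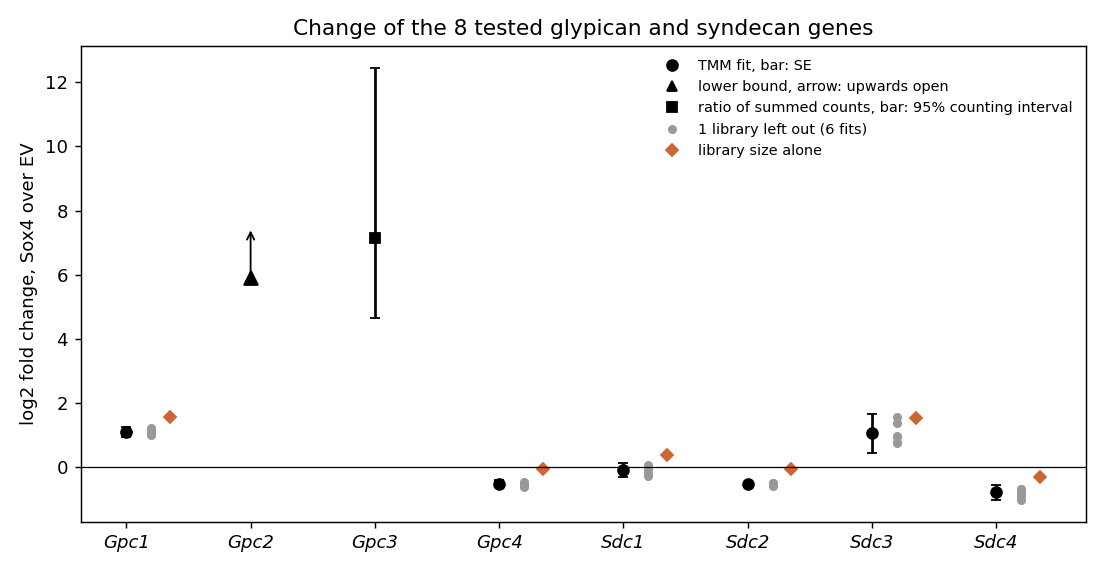
Log2 fold change of Sox4 against EV for the 8 members tested, where black points are TMM-scaled values with bars of 1 SE, grey points are fits with 1 library left out and diamonds use library size alone. The triangle for Gpc2 is a lower bound and the square for Gpc3 is a ratio of summed counts with its 95% counting interval. Gpc4, Sdc2 and Sdc4 were at -0.53, -0.54 and -0.79 on the TMM scale and at -0.057, -0.068 and -0.32 with library size alone, and Sdc1 changed sign.

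Levels between members were compared per kilobase of annotated exon (CPM per kb, TMM-scaled, exon lengths from GENCODE M21), which cannot correct for the isoform in use. In EV the order of the syndecans was Sdc4 at 179 ± 21.5, Sdc1 at 130 ± 18.1, Sdc2 at 73.4 ± 1.17 CPM per kb (SD, n = 3), and Sdc3 was far below at 0.270, 0.430 and 0.799. All 3 EV libraries gave this order with these lengths. With the longest transcript as the length (3157 bases for Sdc1 and 2458 bases for Sdc4), Sdc1 was above Sdc4 in EV 1. In Sox4 the order was Sdc1 at 122 ± 28.4, Sdc4 at 103 ± 26.8, Sdc2 at 50.6 ± 2.94 and Sdc3 at 1.04 ± 0.450 CPM per kb. Sdc1 was above Sdc4 in each Sox4 library, although their means differed by less than 1 SD.

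Among the glypicans, Gpc4 stood at 29.5 ± 3.16 CPM per kb in EV, and Gpc1 followed at 1.40 ± 0.245. In Sox4, Gpc4 was at 20.5 ± 1.38, Gpc2 at 3.13 ± 0.562 and Gpc3 at 1.32 ± 0.600 CPM per kb, while Gpc1 was at 3.16, 3.15 and 2.67. Gpc2 and Gpc1 did not differ beyond their spread there. Gpc4 made up 95.3 ± 1.27% of the summed glypican level in EV and 73.2 ± 2.99% in Sox4. The remainder in Sox4 was divided between Gpc2 (11.2 ± 1.95%), Gpc1 (10.7 ± 0.661%) and Gpc3 (4.78 ± 2.36%), of which Gpc1 alone had a share above 0.1% in EV, at 4.62 ± 1.29%. These shares do not depend on how libraries were scaled.

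The summed level of the glypicans was 27.6, 32.1 and 33.1 CPM per kb in EV and 28.3, 28.7 and 26.8 in Sox4. The groups overlapped, with means of 30.9 ± 2.94 in EV and 28.0 ± 0.992 in Sox4. The summed level of the syndecans was 377, 408 and 365 CPM per kb in EV and 334, 258 and 238 in Sox4, with no overlap on the TMM scale. Within that sum, Sdc4 had 46.7 ± 4.39% in EV and 37.0 ± 3.26% in Sox4, and Sdc1 had 34.0 ± 4.45% and 43.8 ± 3.82%. Sdc2 held 19.2 ± 0.805% and 18.8 ± 4.09%, and Sdc3 0.132% and 0.402%. Sdc1 reached 39.0% in EV 1 and 39.5% in Sox4 3, so its shares came close to overlapping, and those of Sdc4 came close too, at 41.6% in EV 1 and 40.2% in Sox4 1.

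**Figure D4:**
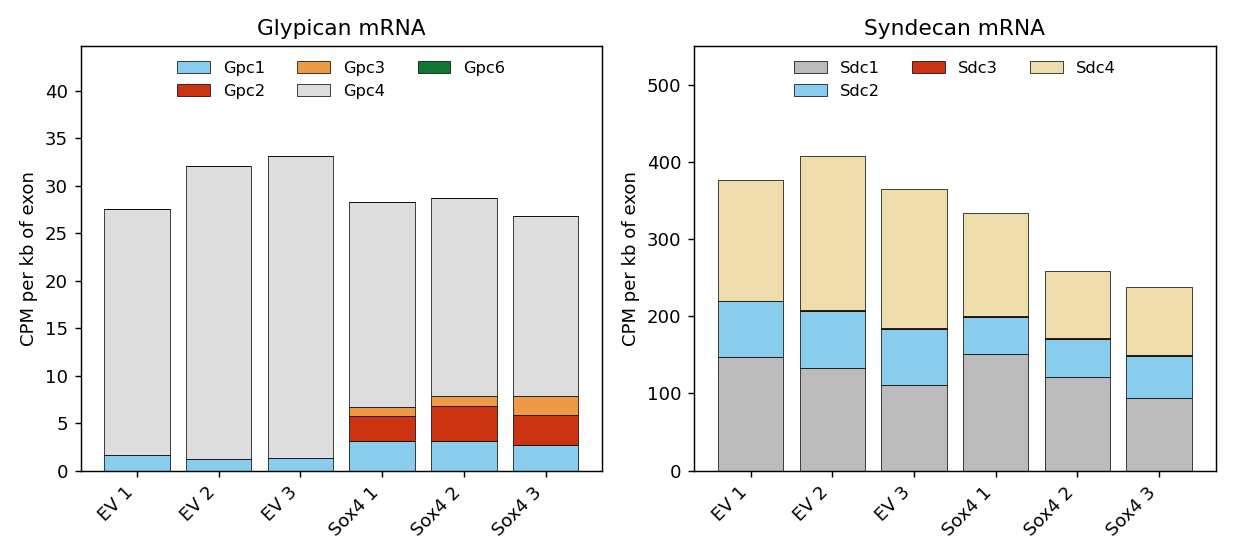
Summed level of the glypicans and of the syndecans in each library, in TMM-scaled CPM per kb of exon, divided by member. The glypican bars overlapped between groups (26.8 to 33.1 CPM per kb in all) while Gpc2 and Gpc3 appeared in Sox4, and the syndecan bars were lower in Sox4 (238 to 334) than in EV (365 to 408) on this scale.

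The members were spread over 8 chromosomes, and their nearest annotated coding genes were examined as well. Of 35 neighbouring or overlapping genes, 9 that were not themselves members passed the filter, and 8 of these were called, beside 55.1% of all tested genes. Sdc1, whose groups overlapped, lay between Pum2 and Laptm4a, which were higher in Sox4 with log2 fold changes of 0.57 (SE 0.14, adjusted p = 0.00497) and 0.98 (SE 0.15, adjusted p = 3.65e-04). Sdc4 lay near Sys1, a Golgi protein gene that fell (-0.69, SE 0.11, adjusted p = 0.00192), whereas Gpc1 lay near Dusp28, a phosphatase gene that fell (-1.17, SE 0.23, adjusted p = 0.00343). Laptm5 (2.11, SE 0.55, adjusted p = 0.00371) lay downstream of Sdc3. Next to Gpc6, Dct had 46, 32 and 32 counts in EV and 1, 1 and 4 in Sox4 (-4.67, SE 0.36, adjusted p = 8.31e-05), and the coding gene on the far side of Gpc5 from Gpc6, Tpm3-rs7, lay 1775461 bases away and was higher (1.09, SE 0.38, adjusted p = 0.0414). Cpq, next to Sdc2, did not pass (0.24, SE 0.08, adjusted p = 0.0830). Of 15 genes that overlap a member, 13 had 0 counts in all libraries. Adjusted p-values are from the edgeR quasi-likelihood test with Benjamini-Hochberg adjustment over all genes.

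For the 3 members with the highest mean level, the genes most like them were sought by Euclidean distance between log2 CPM profiles over the 6 libraries, centred per gene, with 9024 candidate genes (mean count 100 or more). The nearest to Sdc1 were Pfkl (0.10), Csk (0.11) and Dact2 (0.13), whose log2 fold changes were -0.04, -0.17 and -0.16. Sdc4 was followed most closely by Rrbp1 (0.14), Ppp1r16a (0.20) and Timm23 (0.24), and Sdc2 by Gulo (0.071), Ddi2 (0.077) and Ei24 (0.078). Gulo, which encodes the last enzyme of vitamin C synthesis, was at 556 CPM in EV and 385 CPM in Sox4.

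Genes that build, trim, release or work with these proteoglycans were examined as 10 lists of 105 genes, of which 83 were tested, 23 were higher, 26 lower and 34 did not pass, and the shares over all tested genes were 29.0% higher and 26.0% lower. The median log2 fold change of the 83 was -0.02, beside 0.04 for all tested genes. For chain assembly, 2 of 11 tested genes were higher, 2 lower and 7 did not pass, with a list median of 0.09. B4galt7, which adds the first galactose of the linker that joins the chain to the core protein, rose to 27.9 CPM from 10.9 CPM (1.36 on the log2 scale, SE 0.18, adjusted p = 1.14e-04). Extl1, an exostosin-like glycosyltransferase gene, had 312, 125 and 147 counts in EV and 2, 4 and 2 in Sox4, a ratio of 0.00923 with a 95% counting interval from 0.00396 to 0.0183 (adjusted p = 1.31e-05). Ext1, a subunit of the chain polymerase, was at 53.3 and 58.2 CPM and did not pass (0.12, adjusted p = 0.404).

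Of the 8 tested genes of chain modification (sulfation, epimerization and 6-O-desulfation), 5 were lower and 2 higher, with a list median of -0.43, beside 26.0% and 29.0% of all tested genes, and with library size alone 3 of the 8 passed. Among the 6 tested sulfotransferases alone, 4 were lower and 1 higher, the other called genes being the epimerase Glce (lower) and the 6-O-endosulfatase Sulf2 (higher). Ndst1, which starts sulfation of the chain by N-deacetylation and N-sulfation, fell to 160 CPM from 257 CPM (-0.69, SE 0.10, adjusted p = 0.00136) but was at -0.22 and did not pass with library size alone. Hs3st3b1, a 3-O-sulfotransferase gene, fell to 53.9 CPM from 110 CPM (-1.03, SE 0.12, adjusted p = 9.71e-05). In the supply of sulfate and sugar donors, 3 of 9 genes were lower and 2 higher, with a median of -0.23. Papss2, which makes the activated sulfate PAPS, had 2934, 2587 and 2579 counts in EV and 1181, 1256 and 1251 in Sox4 and was lower, with a log2 fold change of -1.71 (SE 0.09) and an adjusted p of 3.80e-06. The sulfate transporter Slc26a1 fell to 119 CPM from 300 CPM (-1.33, SE 0.15, adjusted p = 5.53e-05).

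Among genes of lysosomal chain breakdown, 3 of 8 tested were lower and 2 higher, with a median of 0.05. The shares over all tested genes were 26.0% lower and 29.0% higher. Naglu, which encodes a glucosaminidase, fell to 23.2 CPM from 46.5 CPM (adjusted p = 1.19e-04), and Arsg, which encodes a 3-O-sulfatase, rose from 29.0 to 62.2 CPM (1.10, SE 0.22, adjusted p = 5.27e-04). The heparanase gene Hpse did not pass the filter.

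Enzymes that cut or release the core proteins went both ways, with 2 of 6 tested genes higher and 3 lower and a median of -0.23. The shares over all tested genes were 29.0% higher and 26.0% lower. Gpld1, a phospholipase that cleaves GPI anchors, fell to 131 CPM from 356 CPM (-1.44, SE 0.16, adjusted p = 4.06e-05), and Furin, a protease that processes glypicans, fell to 140 CPM from 334 CPM (-1.25, SE 0.07, adjusted p = 2.37e-05). By contrast, the sheddases Adam10 and Mmp14 rose. Adam10 went from 30.9 to 76.9 CPM (1.31, SE 0.09, adjusted p = 1.20e-05). Mmp14, a membrane-bound metalloprotease that can shed Sdc1, had 521, 550 and 446 counts in EV and 5939, 4738 and 5238 in Sox4 (2.82, SE 0.14, adjusted p = 8.16e-07). Of 5 genes of the GPI transamidase, which attaches the anchor, 2 were higher and 3 did not pass, with a median of -0.17. The most abundant, Pigt, was at 73.6 and 63.5 CPM (adjusted p = 0.154).

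Of the cytosolic partners of syndecan tails, 3 of 6 tested genes were higher and 0 lower, with a median of 0.49. The shares over all tested genes were 29.0% higher and 26.0% lower. Cask, a scaffold kinase, rose from 18.7 to 39.6 CPM (1.08, SE 0.07, adjusted p = 4.63e-05). Tiam1, an activator of the GTPase Rac, had 1, 3 and 2 counts in EV and 64, 59 and 45 in Sox4, a ratio of 18.9 with a 95% counting interval from 8.49 to 52.1 (adjusted p = 6.99e-05). Other proteoglycans that can carry heparan sulfate were higher in 4 and lower in 2 of 7 tested, with a median of 0.76. Hspg2, which encodes perlecan of basement membranes, rose from 7.16 to 21.1 CPM (1.56, SE 0.28, adjusted p = 3.02e-04). Col18a1, the source of endostatin and the most abundant of the list, fell to 589 CPM from 1335 CPM (-1.18, SE 0.25, adjusted p = 9.45e-04), and Nrp1, a co-receptor of VEGF and semaphorins, fell to 12.9 CPM from 56.8 CPM (-2.14, SE 0.32, adjusted p = 1.25e-04). The calls of Cd44 (0, 6 and 10 counts against 19, 35 and 41) and Srgn (4, 4 and 9 against 14, 33 and 32) were lost without EV 1, EV 2, Sox4 2 or Sox4 3, where their log2 fold changes were 1.41 to 2.08 and 1.44 to 1.48.

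Of heparan-sulfate-binding ligands and their receptors, 3 of 14 tested genes were higher, 2 lower and 9 did not pass, with a median of 0.19. The shares over all tested genes were 29.0% higher and 26.0% lower. Mdk, which encodes midkine, a heparin-binding growth factor of development, had 0, 2 and 0 counts in EV and 80, 59 and 83 in Sox4. That is a ratio of 74.8 with a 95% counting interval from 20.5 to 621 (adjusted p = 5.92e-05). Fgf1 fell to 31.9 CPM from 90.8 CPM (-1.51, SE 0.16, adjusted p = 2.03e-05) while its receptor Fgfr1 rose from 9.95 to 34.3 CPM (1.78, SE 0.38, adjusted p = 9.14e-04). Cd81, a tetraspanin reported to bind Gpc3, was at 248 and 255 CPM (adjusted p = 0.851).

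Of hepatic lipoprotein clearance, the pathway that Sdc1 shares, 6 of 9 genes were lower and 1 higher, with a median of -0.86, beside 26.0% lower and 29.0% higher over all tested genes. Sdc1 itself had overlapping groups. The hepatic lipase gene Lipc fell to 62.8 CPM from 159 CPM (-1.34, SE 0.18, adjusted p = 6.40e-05). Apoe, the remnant ligand, was at 15695 ± 3046 and 8656 ± 2991 CPM (-0.86, SE 0.32, adjusted p = 0.0176). The Apoe call was lost without EV 1 (-0.75), without EV 2 (-0.85), without Sox4 2 (-0.75) and with library size alone (-0.39). Lpl, the lipase gene of muscle and fat, was the 1 higher gene, with 1393, 687 and 2644 counts in Sox4 against 204, 365 and 298 in EV (1.88, SE 0.60, adjusted p = 0.0256). Its call was lost without EV 1 (1.67), without EV 3 (1.86), without Sox4 1 (1.96) and with the replicate number as a block (1.72, adjusted p = 0.134).

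**Figure D5:**
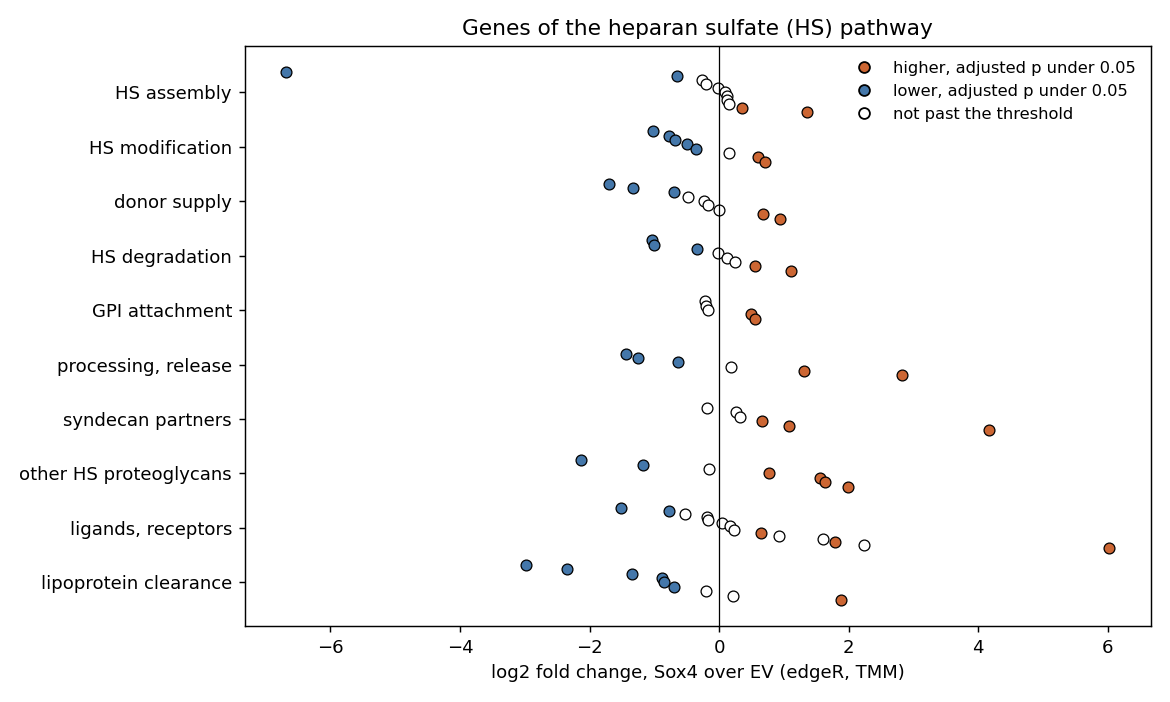
Log2 fold change of Sox4 against EV for the genes of the 10 pathway lists that passed the filter, 1 line of points per list, with orange points for genes called higher, blue points for genes called lower and open points for genes past neither threshold. The list medians ran from -0.86 (lipoprotein clearance) to 0.76 (other proteoglycans), beside 0.04 for all tested genes, and the farthest points (Mdk and Tiam1 on the right, Extl1 on the left) are fitted values with few counts in 1 group.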

How the data were processed

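RNA-seq was performed on 6 hepatocyte libraries, 3 EV and 3 Sox4, and groups and replicate numbers were taken from the labels. The authors aligned reads to GRCm39 with STAR 2.7.10b and counted them per gene with featureCounts 2.0.1, per the submitters' processing notes, and the deposited values are raw counts. The annotation release, strand setting and handling of multi-mapping reads are not given in the sources used here, so a gene and an overlapping gene may not be told apart. A second deposited table held normalized signal, which the authors made with DESeq2 by dividing counts by 1 size factor per library. It was used as an alternative.

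Tests were run in R 4.3.3 on the deposited counts. The packages were edgeR (version 4.0.16), limma (version 3.58.1) and DESeq2 (version 1.42.0), and matplotlib 3.10.9 drew the figures. Genes were kept by filterByExpr (minimum count 10, minimum total 15), and library sizes were scaled with TMM (trimmed mean of M-values). The comparison of the groups used the quasi-likelihood F test of edgeR, robust and with group as its only term, with Benjamini-Hochberg adjustment over all 12691 genes and a threshold of 0.05. CPM values use TMM-scaled library sizes. The standard error (SE) refers to the difference of mean log2 CPM, computed with a prior count of 2. A count of 3 was the floor, set per library, and intervals and floors cover counting error only, since PCR reads are not independent molecules. The scripts were tested on simulated data. Library pairs of a group differed beyond counting noise (chi-square per degree of freedom 17.6 to 62.7), so each counted as 1 replicate, and according to the study each came from a separate animal.

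Exon lengths, neighbours and gene positions are from GENCODE M21 and promoter windows from RefSeq, both on GRCm38, another build than that of the counts, and genes were matched by symbol. The members and the lists were chosen with earlier results of these data known. Genes named are the members, list genes with an adjusted p under 0.05, a log2 fold change of at least 1 in size and no overlap between groups, the most abundant gene of each list, neighbours past the filter, and for the 3 most abundant members the 3 genes with the nearest profile. Some genes that meet this rule are counted in totals but not reported here. Sox4 is also named, and Dcn, Col3a1, Lrat, Reln, Glce, Sulf2 and the untested overlapping or adjacent genes were named after their values were seen. Alternatives were other scalings (DESeq2 size factors, upper quartile, library size alone), other filters (none, or a mean count of at least 50), DESeq2, limma-voom, limma on log2 of the deposited normalized values with a pseudocount of 1, a prior count of 0.5, the replicate block, counts summed with overlapping genes, and leaving out each library in turn. For levels between members, the length of the longest transcript was the alternative.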

Additional observations from a re-analysis of the deposited data

How the results depend on the processing

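The calls of Gpc1 and Gpc2 were the same under all 15 other fits, and so was that of Gpc3 wherever it passed the filter, which it did not at a mean count of at least 50. Gpc4, Sdc2 and Sdc4 were called lower in every alternative but library size alone. Sdc3 was called higher with library size alone, without a filter, with DESeq2, with the replicate block, without EV replicate 3 and without Sox4 replicate 1. Sdc1 reversed to 0.37 with library size alone and to 0.066 without Sox4 replicate 3, with a range of -0.28 to 0.066 over fits without 1 library. With library size alone, Pigt and Pdcd6ip reversed to 0.26 and 0.28, and Cd81 reversed to -0.081 without Sox4 replicate 1 and to -0.018 without Sox4 replicate 2, in a range up to 0.21. The number of list genes called with library size alone became 7 for chain assembly, 3 for chain modification, 5 for syndecan partners and 10 for ligands and receptors, which had 8 without a filter. Called neighbours fell to 5 at a mean count of at least 50, where fewer genes were tested. Without 1 library, the number called ranged from 3 (without EV replicate 2) to 5 for chain breakdown and from 1 (without EV 2, without EV 3 and without Sox4 2) to 2 for GPI attachment. Calls over all genes ranged from 5937 to 8094 over the alternatives. With library size alone 79.9% of the calls were higher, against 52.7% on the TMM scale. The replicate numbers were not treated as pairs in the main fit. Correlations of same-numbered libraries, centred per group, were 0.27, -0.09 and 0.13. These cannot show whether the samples were paired, since libraries with different numbers were not compared. A fit with the replicate block called 7362 genes, 6853 of them shared with the fit without it, and 4 members higher and 3 lower. The causes of these changes were not tested. Depth limits Gpc5 and Gpc6, which lay at or near the floor of 3 counts, and the EV levels of Gpc2 and Gpc3.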
